A study of Mus musculus with 35 samples.

Results

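The genes of polyamine synthesis, breakdown and antizyme control were followed through mRNA and ribosome footprints of mouse acute myeloid leukemia cells. They were picked by name as members of the pathway, with earlier results of these data known, and number 10 of the 55487 genes in the deposited tables: Odc1, Amd1, Srm and Sms for synthesis, Oaz1, Oaz2 and Azin1 for antizyme control, and Sat1, Smox and Paox for breakdown. All 10 passed the filter on low counts in each fit.

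The leukemia cells carry the MLL-AF9 fusion, which joins the histone methyltransferase gene Kmt2a to Mllt3, and express green fluorescent protein (GFP). Cells derived from a terminally ill mouse and carrying either a scrambled guide (sgScramble) or a guide that disrupts Ogfod1 (sgOgfod1) were injected into male recipients aged 8 to 10 weeks. Ogfod1 encodes a prolyl hydroxylase of the ribosomal protein uS12. The mice either ate a diet with standard amino acids and received vehicle, or ate a diet without branched-chain amino acids and received 5+3 chemotherapy. The latter is cytarabine, 100 mg/kg on each of 5 days, with doxorubicin, 3 mg/kg, given on days 1 to 3. Diet and drugs changed together, so their effects cannot be told apart, and the pair is called treatment here. Viable GFP-positive cells were sorted from marrow when the response to chemotherapy was greatest. Of the sgScramble groups, 5 vehicle and 7 treated libraries held RNA, as did 5 vehicle and 6 treated libraries of sgOgfod1 cells. Footprints were read from 3 and 4 of these sgScramble mice and from 3 and 2 of these sgOgfod1 mice. The design asks what treatment and the Ogfod1 guide each do to mRNA and to its translation.

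Polyamines are small positively charged molecules that bind nucleic acids and that growing cells need. Ornithine decarboxylase (Odc1) makes putrescine, and Amd1 supplies the aminopropyl donor with which Srm makes spermidine and Sms makes spermine. Antizymes, made from Oaz1 and Oaz2, bind Odc1 and send it to the proteasome, and the antizyme inhibitor Azin1, an inactive relative of Odc1, takes antizyme away from it. Sat1 acetylates spermidine and spermine for export or for oxidation by Paox, and Smox oxidises spermine directly. Much of this control acts on translation, which makes a paired reading of mRNA and footprints informative for these genes.

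Full-length antizyme is made only when ribosomes shift frame at the end of a short first reading frame, and polyamines favour that shift. The annotation marks the place by skipping 1 base of the coding sequence, in 3 Oaz1 and 2 Oaz2 transcripts. The sites are shown because they define what a footprint on these genes can mean. Both lie in coding exons on the plus strand of GRCm38, at chr10:80828270-80828320 for Oaz1 and chr9:65686247-65686297 for Oaz2. Capitals mark the last sense codon and the stop codon of the first frame. That stop codon follows 68 codons in the Oaz1 transcript with the longest first frame among those that skip the base. The base left out of the coding sequence is the T of that stop codon.
Oaz1 frameshift site: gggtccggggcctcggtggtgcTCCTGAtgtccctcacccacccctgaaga
Oaz2 frameshift site: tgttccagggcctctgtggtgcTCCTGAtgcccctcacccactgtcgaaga
The 2 windows of 51 bases matched at 42 bases, including all 6 capitals. Counts per gene sum footprints before and after the site, so shifting itself was not measured.

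Library totals ran from 31.9 to 142.7 M (mega) counts in RNA and from 5.71 to 14.6 M in footprints. Ogfod1 footprints were 13.7, 14.5 and 15.5 counts per M counts (CPM) in vehicle sgScramble cells and 2.62, 2.98 and 1.67 in vehicle sgOgfod1 cells. They were 14.4, 15.6, 12.4 and 17.5 in treated sgScramble against 2.91 and 1.44 in treated sgOgfod1 cells, so every footprint library matched its genotype label. Ogfod1 RNA was 3.75 to 13.0 CPM in sgOgfod1 libraries and 18.4 to 31.6 in sgScramble libraries, except that the library labelled treated sgScramble replicate 4 held 12.3, inside the sgOgfod1 range. It has no footprint library, and the RNA changes of Paox, Sat1 and Smox are also given without it. All 10 leukemia markers were detected in every library, but some moved. Kit, a progenitor receptor, was 142 to 278 CPM under vehicle and 3.26 to 132 under treatment. Cd93 was 85.8 to 169 and 18.2 to 75.9. Spi1 went the other way, at 196 to 280 and 293 to 924, and the other leukemia markers overlapped. Summed RNA of 12 macrophage markers was 684 to 1243 CPM under vehicle and 977 to 6362 under treatment. That of 8 neutrophil markers, all detected in every library, was 5930 to 16046 CPM under vehicle and 12975 to 77613 under treatment. The library labelled treated sgScramble replicate 4 and treated sgOgfod1 replicate 3 are called the pair standing apart here. They were picked with earlier results of these data known, and no distance between libraries is given. In bulk libraries, a change in the mix of cells and a change in RNA per cell cannot be told apart.

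Most of these genes have processed pseudogenes or a close paralog, which bears on every footprint value below. Of all 28-base stretches of coding sequence, a length like that of a footprint, 100% of Amd1 and of Sms, 91.6% of Oaz1, 87.6% of Paox and 84.4% of Odc1 also occur in a transcript of another gene. The share was 66.3% for Oaz2, 38.9% for Sat1 and 21.4% for Srm, and 0 for Azin1 and Smox. Footprint counts on the pseudogene Sms-ps differed from those on Sms by at most 5 counts in any of 12 libraries, and those on Amd2 from Amd1 by at most 6. In RNA, Sms-ps held 2.50 to 6.06% of the Sms counts and Amd2 0.0395 to 1.58% of the Amd1 counts. Near-equal counts at a gene and its copy are what counting a read at every matching locus gives, and the counting options are not given in the sources used here. Footprint levels of Amd1, Sms, Oaz1, Oaz2, Paox and Odc1 are therefore uncertain as levels of the member alone, and those of Sat1 and Srm in part. On Oaz2-ps lay 69.5% as many footprints as on Oaz2, and on Gm7543 56.4%. In RNA most counts fell on the member, but the protein-coding gene AW146154, which shares 32.7% of the Odc1 coding words, held 21.6% as many RNA counts as Odc1 and 7.10% as many footprints.

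**Figure D1:**
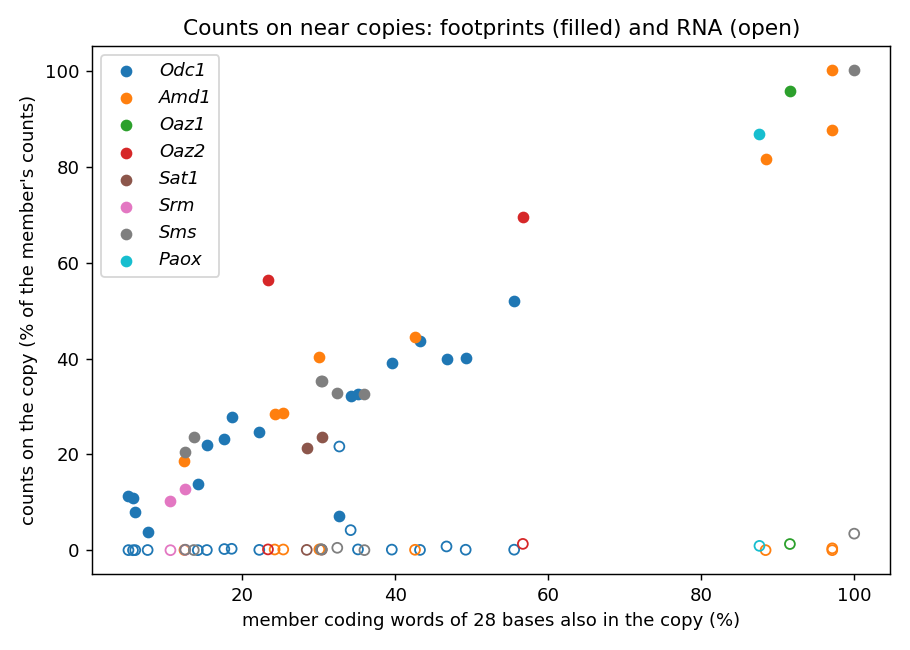
Counts on each near copy as a percentage of the member's counts (vertical axis, summed over libraries), against the percentage of the member's 28-base coding words that the copy shares (horizontal axis). Footprints (filled) climb with shared sequence to about the member's own count, at 100.2% for Sms-ps and for Amd2, while RNA (open) is low for most copies, at 3.47% for Sms-ps. AW146154, a copy of part of Odc1, departs from both, with 21.6% in RNA and 7.10% in footprints.

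Footprints per kilobase of coding sequence set the members in an order. In vehicle sgScramble cells (n = 3) Oaz1 had the highest density, 146 ± 7.78 CPM per kilobase (SD), followed by Sat1 with 63.4 ± 0.484. Srm (36.4 ± 3.38) and Odc1 (34.1 ± 1.44) came next and overlapped. Azin1 (27.6 ± 2.03), Sms (26.2 ± 1.34) and Amd1 (24.4 ± 3.59) overlapped as well. Paox (9.66 ± 0.877) lay above Oaz2 (8.23 ± 0.637) without overlap, and Smox was lowest at 1.87 ± 0.66. Oaz1 ranked first, Sat1 second and Smox last in all 4 groups.

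mRNA per kilobase of exon gave another order. Sat1 led in vehicle sgScramble cells (n = 5) at 124 ± 19.2 CPM per kilobase. Oaz1 (56.2 ± 2.95) and Srm (52.9 ± 5.36) overlapped below it, and Azin1 (43.9 ± 5.29) overlapped Srm. Then came, without overlap, Odc1 (29.2 ± 2.46), Amd1 (15.9 ± 1.54), Oaz2 (12.5 ± 0.602) and Sms (8.59 ± 0.769). Smox (4.07 ± 0.264) and Paox (3.57 ± 0.239) were lowest and overlapped. Exon length here is the union over annotated transcripts, which lowers the value of genes with long rare isoforms.

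The 2 antizymes stood far apart in footprints per mRNA. Oaz1 gave footprint-to-RNA ratios (footprint CPM over RNA CPM of the same mouse) of 0.656, 0.751 and 0.726 in vehicle sgScramble mice, and Oaz2 gave 0.127, 0.123 and 0.131. The Oaz1 ratio lay above that of 82.8% of 10083 protein-coding genes with at least 1 CPM in both assays, and the Oaz2 ratio above that of 11.0%. With each assay taken per kilobase of its own sequence the shares were 86.2% and 28.5%. Oaz1-ps carried 93.5 to 97.3% as many footprints as Oaz1, and Oaz2-ps 69.5% as many as Oaz2, and their part in the ratios was not tested.

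Antizyme inhibitor and acetylase mRNAs also carried few footprints for their abundance. Azin1 ratios were 0.118, 0.131 and 0.133, above 11.0% of genes, and Azin1 shares no 28-base coding word with another gene. Sat1 had the lowest ratio of the 10, at 0.0856, 0.123 and 0.0962, above 6.73% of genes. Per kilobase these shares were 23.2% and 18.1%. Paox was highest, with ratios of 0.979, 0.805 and 0.832, above 87.7% of genes. Sms lay above 73.0%, Odc1 above 68.6%, Srm above 61.0%, Amd1 above 60.7% and Smox above 26.9%. Per kilobase the order changed: Sms was highest at 87.9%, just above Paox at 87.3%, Amd1 was at 67.1%, Odc1 at 57.6% and Srm at 32.4%, and Smox was lowest at 14.1%. In the other 3 groups, not per kilobase, Sat1 stayed between 5.67 and 8.34%, Azin1 between 13.1 and 19.6%, Oaz2 between 11.0 and 13.3% and Paox between 85.9 and 88.1%.

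**Figure D2:**
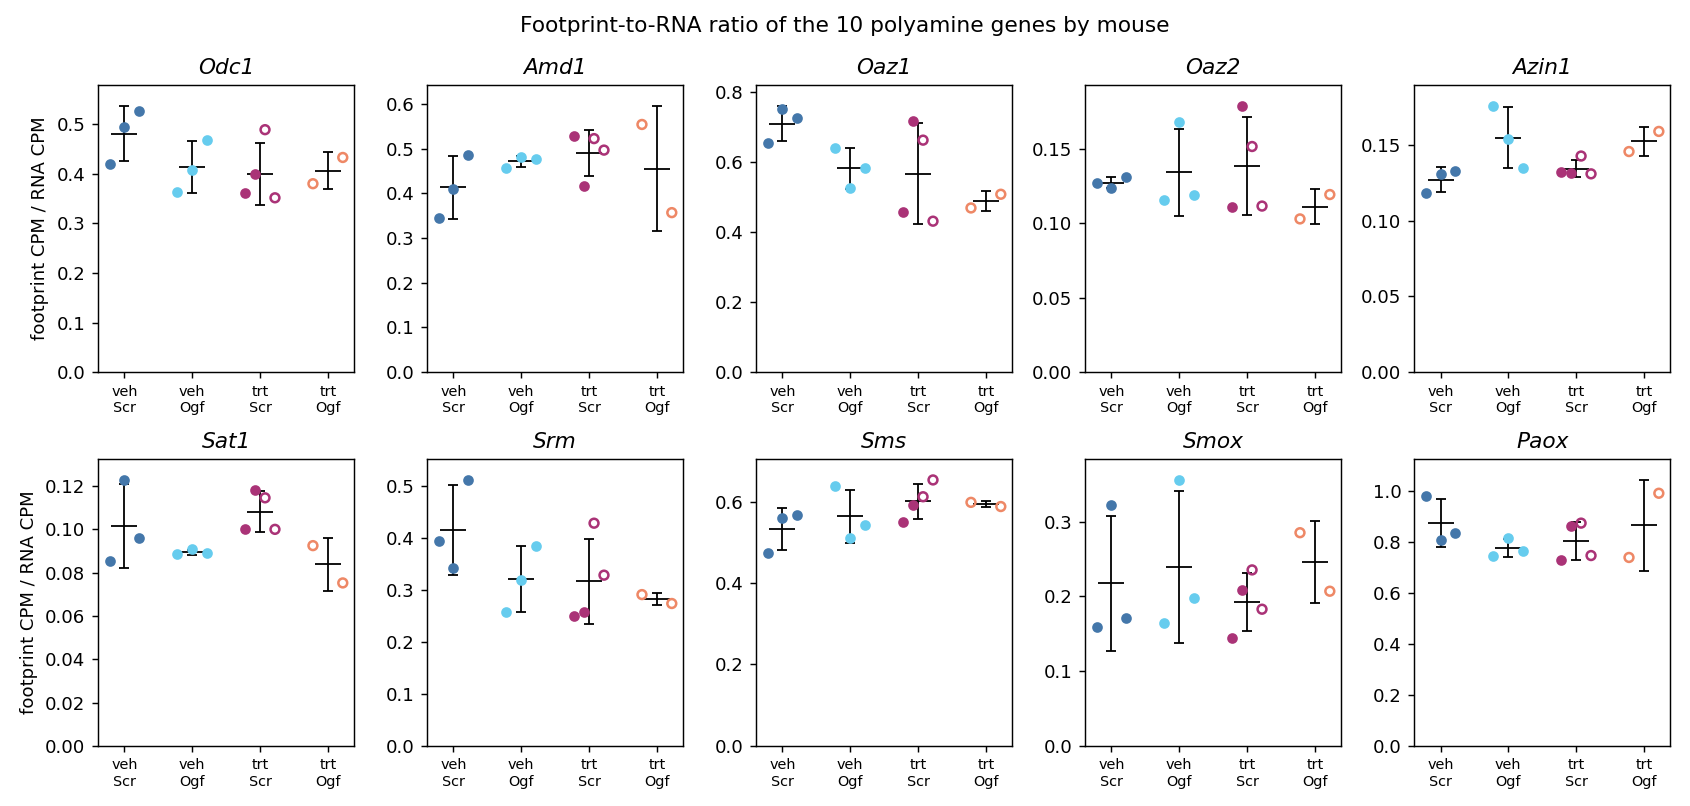
Footprint CPM divided by RNA CPM for each of 12 mice, by member and group (veh, vehicle; trt, treated; Scr, sgScramble; Ogf, sgOgfod1). Bars give the mean and SD, and open points mark library numbers from 17 up. Oaz1 lay between 0.432 and 0.751 and Oaz2 between 0.103 and 0.179.

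Treatment lowered mRNA of Paox, the acetylpolyamine oxidase, and this was the change seen most widely among the members. Paox lies at chr7:140115799-140137224 on the plus strand (ENSMUSG00000025464). In sgScramble cells its RNA was 17.9, 16.5, 16.9, 19.4 and 16.9 CPM under vehicle. Under treatment it had a lowest value of 8.57, a median of 9.64 and a highest value of 13.4 CPM over 7 libraries. The ranges did not overlap, and all 7 treated libraries were below the vehicle median. The log2 fold change was -0.75 ± 0.14 (SE, adjusted p = 0.000892, edgeR quasi-likelihood test), and -0.81 without the library labelled replicate 4. Paox was the only member called in that comparison, 1 of 10, while 12.9% of the 21474 genes tested were called, 8.60% higher and 4.34% lower.

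In sgOgfod1 cells Paox RNA went from 17.6, 16.9, 18.4, 15.8 and 19.1 CPM to a lowest value of 9.11, a median of 10.6 and a highest of 14.0 over 6 libraries. These ranges did not overlap either, and the log2 fold change was -0.69 ± 0.14 (adjusted p = 0.0034). Here 2 of 10 members were called, Smox higher and Paox lower, against 9.87% of all genes, 5.69% higher and 4.18% lower. The drop did not differ between genotypes by test, with an interaction of 0.06 and a 95% interval from -0.35 to 0.48.

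Footprints on Paox fell with its mRNA in sgScramble cells. They were 16.1, 13.6 and 14.1 CPM under vehicle and 9.80, 8.94, 7.95 and 7.19 under treatment, with no overlap. The log2 fold change was -0.78 ± 0.14 (adjusted p = 0.0016), and Paox was again the only member called, 1 of 10 against 15.6% of 18290 genes, 8.12% higher and 7.44% lower. In sgOgfod1 cells footprints were 13.7, 12.9 and 14.6 CPM against 10.3 and 11.0, also apart, but the difference of -0.37 ± 0.16 was not called (adjusted p = 0.173). No member was called in that comparison, where 8.22% of genes were, 4.65% higher and 3.56% lower. At an unadjusted p under 0.05 there were 3 members, Oaz1, Sms and Paox, and DESeq2 called 1. The share over all genes is not given for either, so these counts stand without a background.

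Sequence shared with other loci touches Paox in each assay. At its 5′ end 142 exon bases, chr7:140115799-140115940, are also exons of Echs1, an enoyl-CoA hydratase gene on the opposite strand, and counts that ignore strand can hold Echs1 reads. Echs1 RNA itself differed by -0.03 ± 0.11 (adjusted p = 0.905) with treatment in sgScramble cells and by -0.04 ± 0.12 (adjusted p = 0.887) in sgOgfod1 cells. The pseudogene Gm19680, which shares 87.6% of Paox coding words, held 0.918% of the Paox RNA counts and 86.9% of its footprint counts.

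Some markers of cell type and stage moved with treatment in the same libraries as Paox. Kit and Cd93 were lower in all 13 treated than in all 10 vehicle libraries, as was Paox. Spi1, also a listed leukemia marker, was higher in all 13, at 293 to 924 CPM against 196 to 280. The other listed leukemia markers overlapped. The macrophage genes C1qa, C1qb, C1qc, Cd5l and Mrc1 were higher in all 13, for example C1qa at 3.22 to 204 CPM against 0.473 to 2.84. The rest of the 12 macrophage markers overlapped between treated and vehicle libraries when both genotypes were pooled. Within sgScramble cells Slc40a1, Axl and Vsig4 were higher in every treated library, for example Axl at 9.47 to 254 CPM against 2.05 to 3.99. Within sgOgfod1 cells Slc40a1 was (376 to 894 CPM against 178 to 287). Adgre1 leaned lower in sgOgfod1 cells, at 73.7 to 287 CPM under treatment against 227 to 303 under vehicle. Treated sgScramble replicate 1, whose Paox RNA was 13.4 CPM, had summed macrophage markers (991 CPM) inside the vehicle sgScramble range. Its neutrophil sum (12975 CPM) lay above that of vehicle sgScramble libraries (5930 to 11820) and inside that of vehicle sgOgfod1 libraries (6369 to 16046). In vehicle sgScramble cells the macrophage sum was mostly Adgre1 (344 to 462 CPM), Vcam1 (311 to 500) and Slc40a1 (200 to 271). The macrophage genes named as higher in all 13 were higher in this library too. Its megakaryocyte markers summed to 23.7 CPM against 2.06 to 6.33 under vehicle, and its B and plasma cell markers to 41.9 against 71.3 to 190.0. The part of cell mix in the Paox change was not tested.

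Smox, which oxidises spermine to spermidine and releases hydrogen peroxide, had the largest fold changes of RNA with treatment among the 10. It lies at chr2:131491496-131525922 on the plus strand (ENSMUSG00000027333) and shares no coding word with another gene. In sgOgfod1 cells its RNA was 9.13, 9.18, 9.40, 5.11 and 12.8 CPM under vehicle. Treated sgOgfod1 libraries held a lowest value of 5.98, a median of 22.6 and a highest of 57.8. The log2 fold change of 1.60 ± 0.41 was called (adjusted p = 0.0144), although the ranges overlapped, and 5 of 6 treated libraries lay above the vehicle median. The treated libraries numbered below 17 held 57.8, 44.4 and 28.3 CPM, and those numbered from 17 up held 16.9, 5.98 and 12.5. With 1 term for library numbers from 17 up, shared by both genotypes, the change was 1.80 (adjusted p = 0.00799). In treated sgScramble cells the libraries from 17 up ran from 22.3 to 56.9 CPM, and those below held 19.7 and 25.8. A shared term cannot take up shifts that differ between genotypes, so this value does not settle the part of library number.

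The Smox call in sgOgfod1 cells was kept in 30 of 32 RNA alternatives. On leaving out 1 library the change ran from 1.26 to 1.82. The call was lost with the replicate number as a block, where the change was 1.5 (adjusted p = 0.0659). It was also lost with only the mice that had footprints, 3 vehicle and 2 treated for sgOgfod1, where the change was 0.30 (adjusted p = 0.749). Footprints of those mice were 1.55, 1.82 and 2.53 CPM under vehicle and 4.81 and 1.24 under treatment, a difference of 0.57 ± 0.48 (adjusted p = 0.526).

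In sgScramble cells every treated library exceeded every vehicle library in Smox RNA. The vehicle values were 17.2, 16.2, 14.4, 16 and 15.5 CPM, and the treated ones had a lowest value of 19.7, a median of 25.8 and a highest of 56.9. The log2 fold change of 1.00 ± 0.39 was still not called (adjusted p = 0.0948). The highest value was that of the library labelled replicate 4, which also held the most macrophage marker RNA, 6362 CPM, and without it the change was 0.79.

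Sat1, the acetylase at the entry to breakdown, had the most variable mRNA of the abundant members. It lies at chrX:155213132-155216449 on the minus strand (ENSMUSG00000025283). Under vehicle its RNA was 389.6, 399, 274, 309 and 351 CPM in sgScramble cells and 377, 275, 353, 249 and 320.2 in sgOgfod1 cells. Under treatment it reached 327, 459 and 1158 as lowest, median and highest of 7 sgScramble libraries, and 309, 456 and 748 of 6 sgOgfod1 libraries. The groups overlapped, and neither log2 difference was called: 0.74 ± 0.26 (adjusted p = 0.065) and 0.66 ± 0.27 (adjusted p = 0.123).

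High Sat1 went with macrophage markers across treated libraries. In treated sgScramble cells the libraries with 1158, 636 and 606 CPM of Sat1 held 6362, 3722 and 3948 CPM of macrophage markers, and the other 4 held 991 to 1414. In treated sgOgfod1 cells the highest Sat1 values, 748 and 695, came with the highest marker sums, 2122 and 2308. The part of other cells in the Sat1 level was not tested. Without the library labelled treated sgScramble replicate 4 the difference in sgScramble cells was 0.47 (adjusted p = 0.151). With only the mice that have footprints it was 0.25 (adjusted p = 0.428) in sgScramble and 0.032 (adjusted p = 0.977) in sgOgfod1 cells, and with voom 0.35 and 0.43.

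Sat1 footprints differed by 0.39 ± 0.15 with treatment in sgScramble cells (adjusted p = 0.0873) and by -0.06 ± 0.18 in sgOgfod1 cells (adjusted p = 0.893). They gave the single genotype call among the members. Treated sgScramble mice had 32.8, 51.7, 52.6 and 41.2 CPM and treated sgOgfod1 mice 28.6 and 24.4, without overlap. The log2 difference, sgOgfod1 minus sgScramble, was -0.75 ± 0.18 (adjusted p = 0.0438), 1 of 10 members against 1.58% of all genes. At an unadjusted p under 0.05, for which no share over all genes is given, there were 2 members, Sat1 and Oaz1. The Sat1 call rests on 2 sgOgfod1 mice. It was lost with the replicate number as a block (-0.70, adjusted p = 0.144) and on leaving out any of 8 of the 12 libraries. Under vehicle the footprints were 34.1, 33.6 and 33.8 against 31.3, 22.6 and 28.5, a difference of -0.29 ± 0.16 (adjusted p = 0.376). Over all treated RNA libraries, including the one labelled sgScramble replicate 4 at 1158 CPM, Sat1 RNA differed by -0.21 ± 0.25 (adjusted p = 0.778). In the treated mice with footprints alone, Sat1 RNA was 327, 437, 459 and 412 CPM for sgScramble and 309 and 324 for sgOgfod1, without overlap.

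Odc1, the first enzyme of the pathway, had slightly more mRNA after treatment in sgScramble cells. It lies at chr12:17544794-17551505 on the plus strand (ENSMUSG00000011179). The vehicle values were 107, 110.0, 92.3, 94.7 and 93.5 CPM, and the treated ones had a lowest value of 106, a median of 126 and a highest of 143. The ranges overlapped narrowly, all 7 treated libraries exceeded the vehicle median, and the log2 difference of 0.33 ± 0.11 missed the threshold (adjusted p = 0.0529). DESeq2 called it (0.32, adjusted p = 0.02). Footprints of Odc1 were 46.2, 45.7 and 49.4 CPM under vehicle and 51.9, 44.3, 51.8 and 50.5 under treatment, a log2 difference of 0.08 ± 0.11 (adjusted p = 0.676). In sgOgfod1 cells Odc1 RNA differed by 0.08 ± 0.12 and footprints by 0.21 ± 0.13, and neither was called.

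Amd1, the decarboxylase of S-adenosylmethionine, varied little in mean level. It lies at chr10:40287458-40302186 on the minus strand (ENSMUSG00000075232). Mean RNA of sgScramble cells was 56.5 ± 5.44 CPM under vehicle (SD, n = 5) and 55.2 ± 9.65 under treatment (n = 7). For sgOgfod1 cells it was 55.3 ± 5.58 (n = 5) and 50.8 ± 11.2 (n = 6). Treatment differences were -0.03 in sgScramble cells (95% interval -0.32 to 0.26) and -0.12 in sgOgfod1 cells (-0.43 to 0.18). Its footprints ran from 18.2 to 32.7 CPM over all 12 mice, with all groups overlapping.

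The 2 aminopropyl transferases leaned in opposite directions. Srm RNA, the spermidine synthase mRNA (chr4:148591503-148594993, plus strand, ENSMUSG00000006442), was 91.0, 81.8, 88.4, 91.2 and 70.9 CPM in vehicle sgScramble cells. After treatment its lowest, median and highest values were 83.0, 133 and 165, with 6 of 7 above the vehicle median, and the log2 difference of 0.62 ± 0.22 was not called (adjusted p = 0.0732). Its footprints differed by 0.13 ± 0.19 in the same comparison. Sms RNA, the spermine synthase mRNA (chrX:157443855-157492287, minus strand, ENSMUSG00000071708), differed by -0.23 ± 0.13 in sgScramble cells (adjusted p = 0.267) and by -0.35 ± 0.13 in sgOgfod1 cells (adjusted p = 0.0956). Sms RNA of sgOgfod1 cells was 56.2, 56.7, 51.0, 73.8 and 61.0 CPM under vehicle and 35.6, 44.7 and 61.7 as lowest, median and highest under treatment.

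Oaz1, the member with most footprints per kilobase (chr10:80826656-80829290, plus strand, ENSMUSG00000035242), had steady mRNA in all but a pair of libraries. RNA was 134 to 154 CPM in vehicle sgScramble and 143 to 186 in vehicle sgOgfod1 cells. The library labelled treated sgScramble replicate 4 had 309.6 and treated sgOgfod1 replicate 3 had 278, the libraries that stood apart, and all other treated libraries lay between 122 and 178. Treatment differences in RNA were 0.29 ± 0.19 (adjusted p = 0.346) and 0.08 ± 0.19 (adjusted p = 0.839).

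Oaz1 footprints were lowest in the treated sgOgfod1 mice. They were 106, 97.5 and 94.4 CPM under vehicle and 66.8 and 68.2 under treatment in sgOgfod1 cells, without overlap, and 96.4, 106 and 97.0 against 81.3, 119.6, 81.0 and 67.4 in sgScramble cells, with overlap. The log2 differences were -0.56 ± 0.18 (adjusted p = 0.0616) and -0.19 ± 0.14 (adjusted p = 0.394), neither called. Both treated sgOgfod1 footprint libraries have numbers from 17 up and no vehicle library does. With a term for those numbers the first difference was -0.12 (adjusted p = 0.881).

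Oaz2, the second antizyme (chr9:65668001-65690300, plus strand, ENSMUSG00000040652), had few footprints, 3.71 to 7.39 CPM over all 12 mice. Its RNA was 34.5 to 39.3 CPM in vehicle sgScramble cells and 35.3, 41.4 and 67.9 as lowest, median and highest after treatment, a difference of 0.28 ± 0.15 (adjusted p = 0.237). The highest value was again that of the library labelled replicate 4. Azin1 (chr15:38487427-38519266, minus strand, ENSMUSG00000037458) differed by -0.0097 in RNA (95% interval -0.41 to 0.39) and by 0.16 in footprints (-0.13 to 0.44) with treatment in sgScramble cells. Its RNA ran from 144 to 356 CPM over the 23 libraries, with the lowest value in treated sgOgfod1 replicate 3. An antisense gene, Gm49077, overlaps 358 bases of its exons outside the coding sequence.

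**Figure D3:**
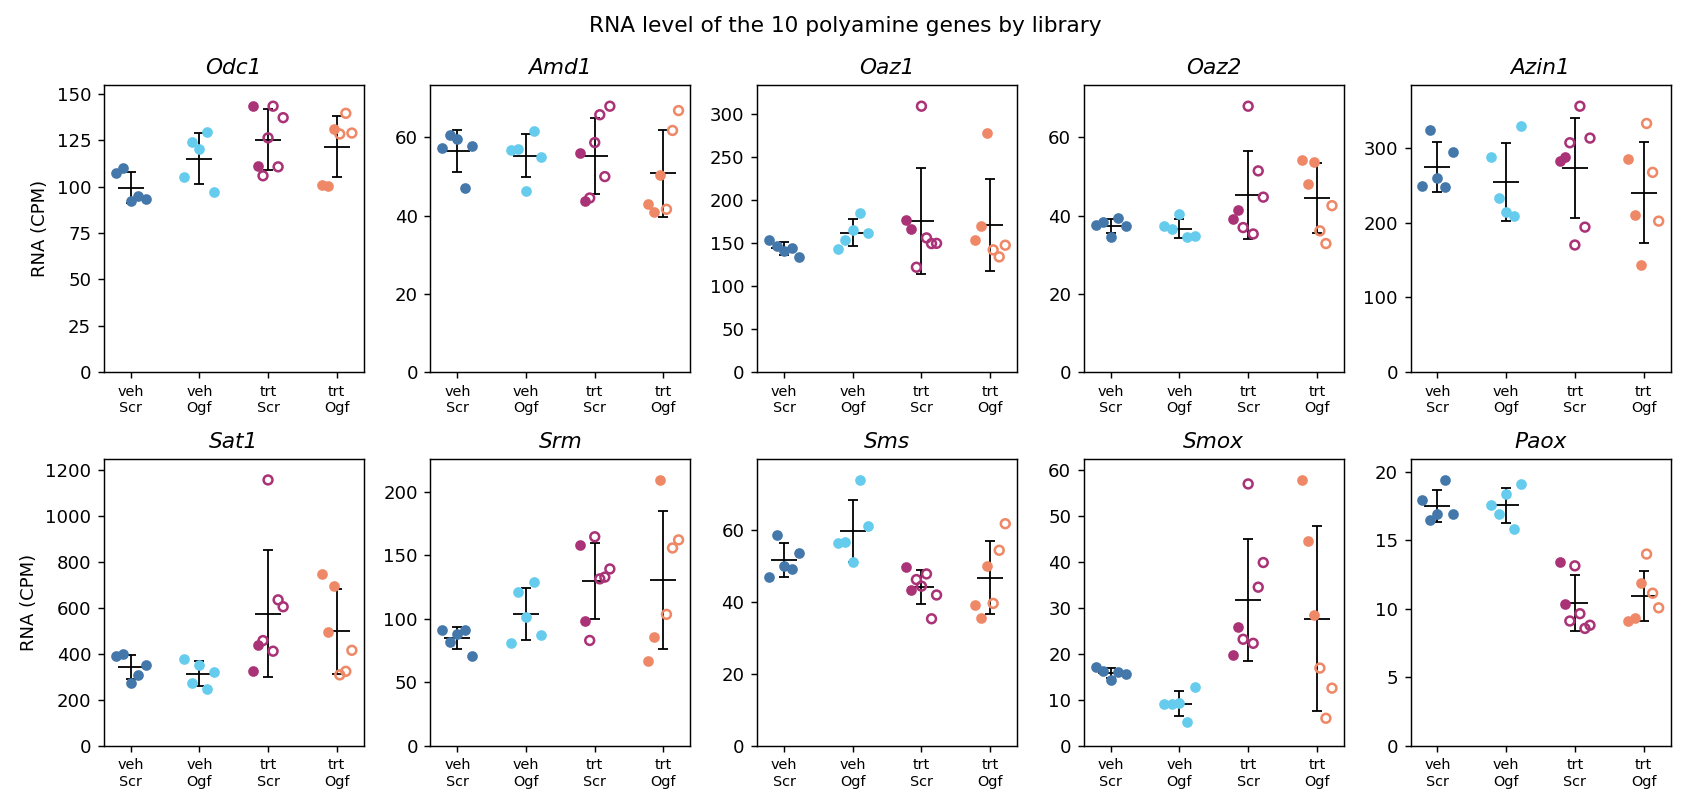
RNA of the 10 members in CPM for each of 23 libraries, by group (veh, vehicle; trt, treated; Scr, sgScramble; Ogf, sgOgfod1). Bars give the mean and SD, and open points mark library numbers from 17 up. All 13 treated libraries lie below all 10 vehicle libraries for Paox, and 1 treated library reaches 1158 CPM for Sat1.

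**Figure D4:**
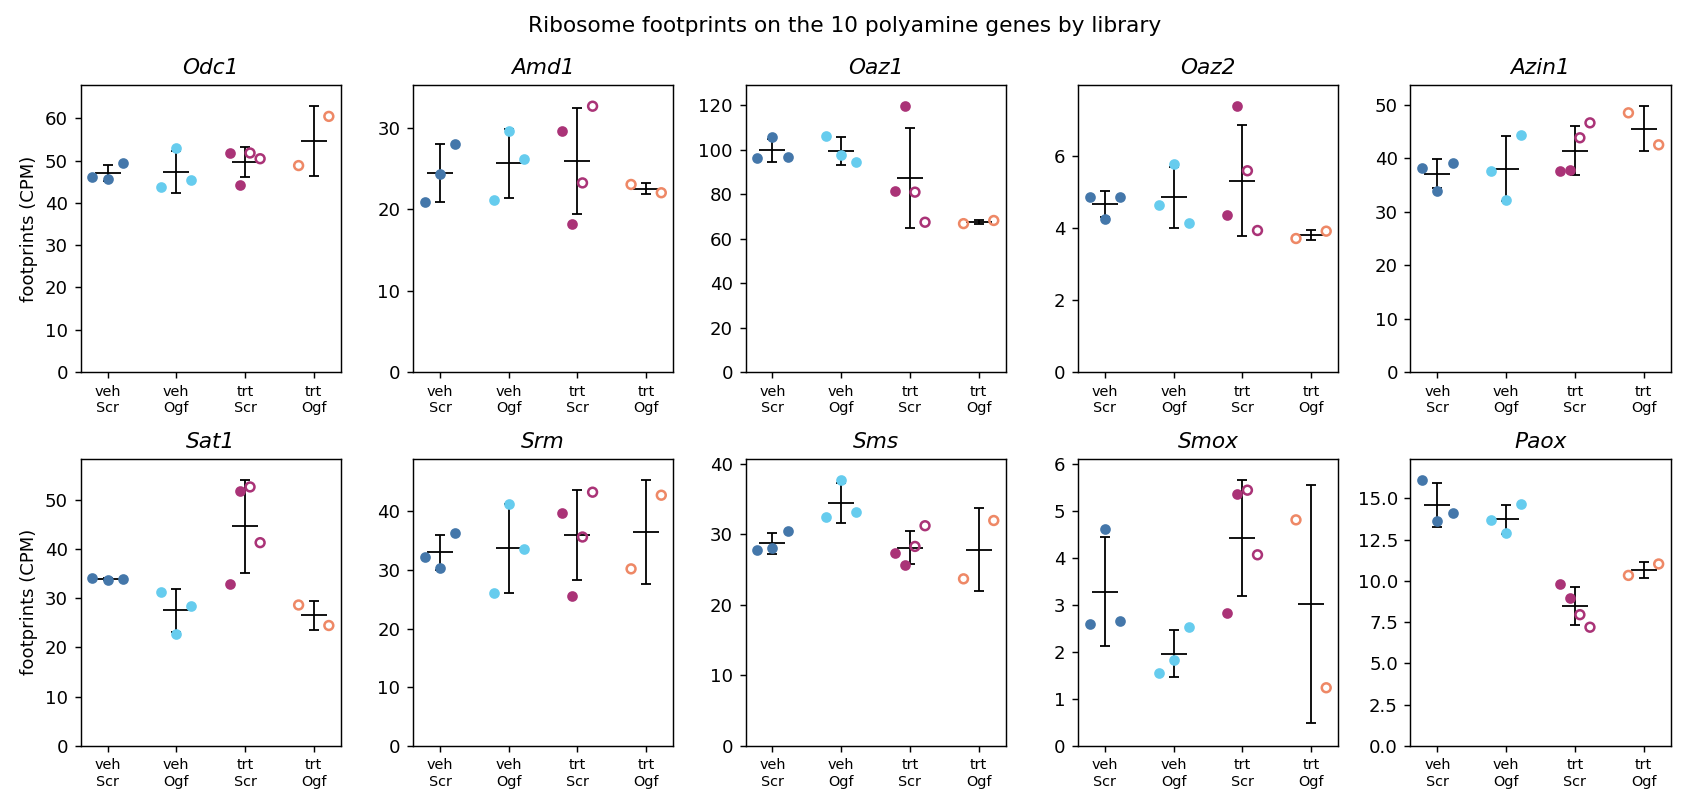
Footprints on the 10 members in CPM for each of 12 libraries, grouped and marked as for RNA. Paox is at most 9.80 CPM in the 4 treated sgScramble libraries and at least 12.9 in the 6 vehicle libraries, and Oaz1 has its lowest group mean, 67.5 CPM, in treated sgOgfod1 mice.

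Over the 10 members the median log2 change of RNA with treatment was 0.28 in sgScramble cells and 0.08 in sgOgfod1 cells, against -0.0059 and -0.0022 over all genes tested. For footprints the medians were 0.11 and -0.12, against -0.011 and -0.014. Besides Paox, 4 members had an unadjusted p under 0.05 in sgScramble RNA, all with higher values after treatment: Odc1, Sat1, Srm and Smox. DESeq2 called these 4 as well as Paox, with 3814 of 21474 genes called over all, and 2 of the 10 members were called by edgeR without the pair of libraries that stood apart. The share over all genes is not given at the unadjusted threshold or without that pair. 

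By genotype, Sat1 footprints under treatment were the only call. In RNA 0 of 10 members were called by edgeR under vehicle (0.116% of genes) and 0 under treatment (0.391%), with 0 at an unadjusted p under 0.05 in either, and DESeq2 called 0 as well. Under vehicle, Smox RNA did separate the genotypes: all 5 sgOgfod1 libraries, 5.11 to 12.8 CPM, were below all 5 sgScramble libraries, 14.4 to 17.2. Other cells' markers separated the same libraries. Stromal and endothelial markers summed to 67.1 to 85.5 CPM in sgOgfod1 and 99.5 to 115 in sgScramble cells, and erythroid ones to 8.76 to 19.3 and 1.25 to 3.39. Listed leukemia markers separated them as well: Cd93 was 85.8 to 137 and 139 to 169, Hoxa10 42.8 to 72.5 and 31.8 to 42.6, and Cebpa 17.44 to 20.7 and 14.8 to 17.38. The other leukemia markers overlapped. Of the macrophage markers, Adgre1 was lower in sgOgfod1 cells (227 to 303 against 344 to 462). C1qa, C1qb, C1qc, Mrc1 and Axl were higher, and the rest overlapped. The lowest Smox library, sgOgfod1 replicate 4, held 765 CPM of basophil and mast cell markers against 23.2 to 193 in the other 4 of its group, and the part of these cells was not tested. The log2 difference of Smox was -0.80 ± 0.41 and its 95% interval ran from -1.66 to 0.07. In treated cells Smox differed by -0.20 ± 0.36 between genotypes.

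Footprints by genotype under vehicle gave 0 of 10 calls against 1.81% of genes, and 0 members at an unadjusted p under 0.05. Differences ran from -0.67 for Smox to 0.26 for Sms. The interaction of genotype and treatment called 0 members in RNA, where 0% of genes were called, and 0 in footprints, where 0.0656% were, with 0 at an unadjusted p under 0.05 in either assay.

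No member changed its footprint-to-RNA ratio by test. The mouse-blocked model called 0 of 10 in each of 5 comparisons. The background was 1.31% of 28606 genes for treatment in sgScramble and 0.0524% in sgOgfod1 cells, 0.0769% and 0.0664% for genotype under vehicle and treatment, and 0% for the interaction. A member had an unadjusted p under 0.05 in 2 of the comparisons, Azin1 by genotype under vehicle and Sat1 by genotype under treatment, and in no other. The share over all genes at that threshold is not given.

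The intervals are wide for the genes known for control at translation. For treatment in sgScramble cells the log2 ratio changed by -0.32 for Oaz1 (95% interval -0.69 to 0.05), 0.29 for Amd1 (-0.08 to 0.66), -0.24 for Odc1 (-0.57 to 0.09) and 0.11 for Azin1 (-0.13 to 0.36). Oaz1 ratios of treated sgScramble mice were 0.458, 0.717, 0.663 and 0.432, against 0.656 to 0.751 under vehicle, so they overlapped. For Paox, whose mRNA and footprints both fell, the change was -0.09 (-0.53 to 0.35).

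The ratios of Azin1 under vehicle and of Sat1 under treatment separated the genotypes without being called. Azin1 ratios were 0.176, 0.154 and 0.135 in vehicle sgOgfod1 mice against 0.118, 0.131 and 0.133, apart and higher by 0.27 ± 0.11 on the log2 scale (adjusted p = 0.618). Sat1 ratios were 0.0925 and 0.0753 in treated sgOgfod1 mice against 0.100, 0.118, 0.115 and 0.100 in treated sgScramble mice, apart and different by -0.36 ± 0.14 (adjusted p = 0.568).

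**Figure D5:**
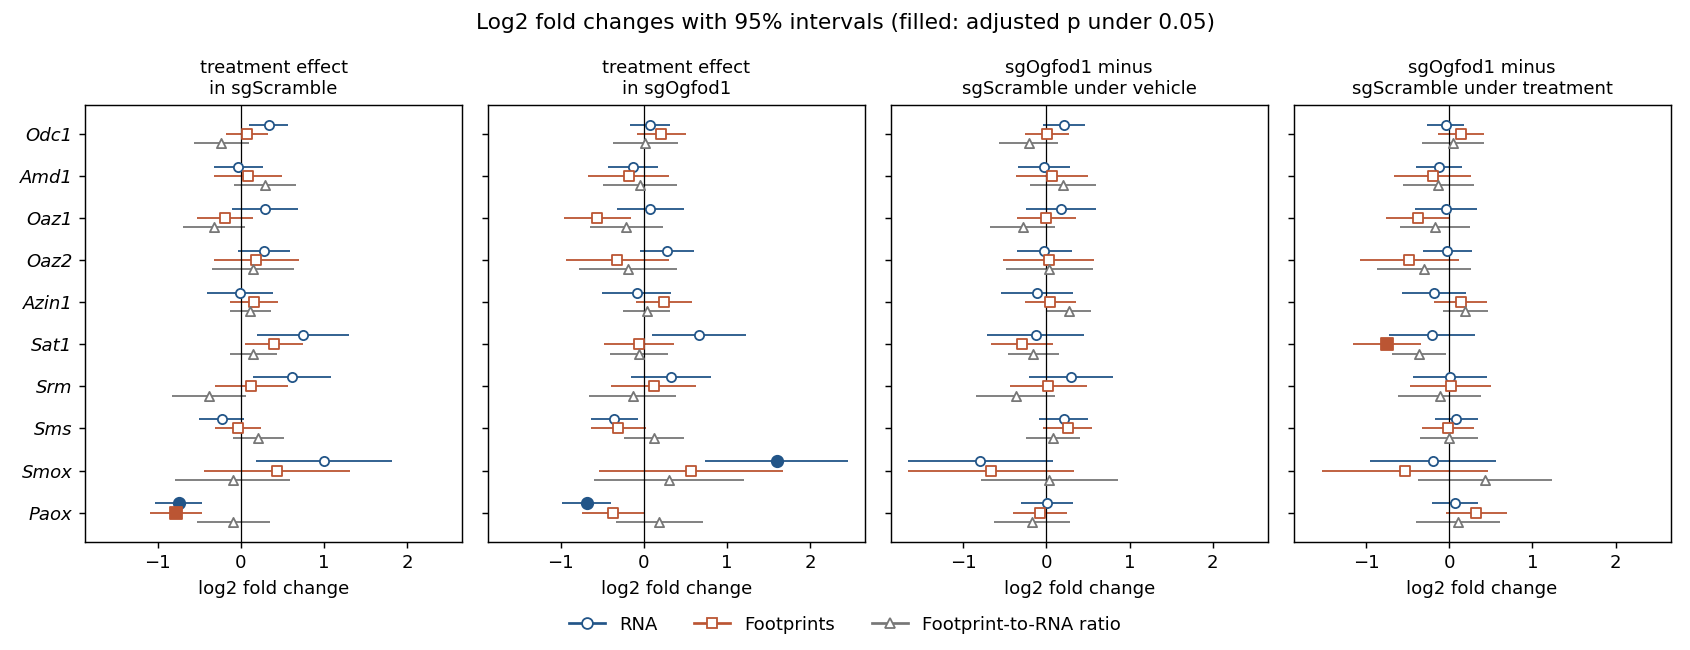
Log2 fold changes (horizontal axis) of the 10 members for RNA, footprints and their ratio in 4 comparisons, with 95% intervals. Filled symbols mark an adjusted p under 0.05: Paox RNA and footprints with treatment in sgScramble cells, Paox and Smox RNA in sgOgfod1 cells, and Sat1 footprints by genotype under treatment.

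Around the 10 members, 35 genes of arginine, methionine, hypusine and transport steps, homologs and Myc regulators were listed, and 29 were tested in RNA and 22 in footprints. Treatment in sgScramble cells raised RNA of 4 of the 29 and lowered that of 1, against 8.60% higher and 4.34% lower over all genes. Higher were Slc3a2, a heavy chain of amino acid transporters linked to polyamine export (0.97 ± 0.13, adjusted p = 4.75e-05), Slc7a2, an arginine transporter (1.67 ± 0.41, adjusted p = 0.00913), Arg2, the mitochondrial arginase that makes ornithine (1.05 ± 0.34, adjusted p = 0.0421), and Eif5a, which carries the spermidine-derived residue hypusine (0.73 ± 0.19, adjusted p = 0.0143). Ahcy, which clears S-adenosylhomocysteine, was lower (-0.48 ± 0.14, adjusted p = 0.0254).

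In sgOgfod1 cells 2 of the 29 rose and 2 fell, against 5.69% and 4.18% of all genes. Slc3a2 rose by 0.86 ± 0.13 and Azin2, a second antizyme inhibitor, by 1.45 ± 0.37 (adjusted p = 0.013). Ahcy fell by 0.57 ± 0.15 on the log2 scale, and Atp13a2, a lysosomal polyamine exporter, fell by 0.98 ± 0.22 (adjusted p = 0.00641).

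Footprints of Atp13a2 fell in both genotypes, by 1.01 ± 0.14 in sgScramble (adjusted p = 0.000408) and by 1.06 ± 0.18 in sgOgfod1 cells (adjusted p = 0.00311). Slc3a2 footprints rose by 0.55 ± 0.15 and 0.87 ± 0.17. In sgScramble cells Mat2a and Mtap, listed under methionine steps, also rose, and Oat and Myc fell. That gave 3 higher and 3 lower of 22 where 15.6% of all genes were called, and in sgOgfod1 cells there were 1 and 1 where 8.22% were. The ratio of Myc, a transcription factor with Odc1 among its known targets, fell by 0.41 ± 0.10 (adjusted p = 0.0369) in sgScramble cells, the only call among 31 listed genes tested for the ratio. None of the listed genes was called by genotype in either assay.

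Genes whose RNA followed each member most closely over the 23 libraries were taken from 14335 expressed genes by Pearson's r of log2 CPM. These values are descriptions, since the libraries share groups and cell mix. Sat1 went most closely with Fth1, the ferritin heavy chain (r = 0.957), Srm with the nucleolar gene Nop16 (r = 0.949), and Smox with Btg2 (r = 0.951). Oaz2 followed Nrbp1 (r = 0.970) and Paox followed Muc13 (r = 0.896). The closest gene to Odc1 was Naca (r = 0.847), and to Amd1 it was Pwp1, at r = 0.787 the weakest of the 10.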

How the data were processed

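Per the labels' protocols, 2 µl of each 20 µl lysate went into Smart-seq2, which keeps no strand and no molecular identifiers, and RNase-protected fragments came from the rest. The authors deposited raw counts per gene. The tools named per the submitters' processing notes are featureCounts, STAR, Bowtie2, SAMtools and cutadapt, with builds GRCm38 and mm10. The sources used here give no versions, strand setting or rule for shared reads. A pair of entries of the pseudogene Gm7270 held identical counts in all 23 RNA and 12 footprint libraries. Counting a read at each entry would give that, but the counting rule was not tested. Every column matched 1 sample. Names, exons and coding lengths came from GENCODE M21. Of 55487 listed genes 260 had no name, and they stayed in the fits.

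Counts were tested with edgeR 4.0.16 in R 4.3.3: trimmed mean of M values (TMM) scaling, filterByExpr, robust quasi-likelihood test, all 4 groups in 1 fit per assay, Benjamini-Hochberg adjustment over all genes tested, calls at an adjusted p under 0.05. For the ratio, both assays of 12 mice entered 1 model, blocked by mouse and scaled within each assay, and its assay-by-group contrasts were tested. Scripts were tested on simulated data. Residual degrees of freedom were 19 in RNA and 8 in footprints and in the ratio, and 95% intervals use them. CPM use TMM-scaled totals, and intervals cover no PCR duplication. Median totals were 56.1 M (mega) in RNA and 9.27 M in footprints.

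RNA and footprint libraries with the same group and number were taken as 1 mouse, as the labels do. After group means were removed each footprint library correlated with its own mouse's RNA (r from 0.166 to 0.692 over 11054 genes) and better than with any other of its group; with 2 mice in a group only the sign is informative. The labels call replicates biological. Between replicates of a group, chi-square per degree of freedom was at least 17.2 in RNA (56 pairs) and 6.20 in footprints (13 pairs). No library therefore appeared more than once within a group, and libraries of different groups were not compared. The members, lists and tests were chosen with earlier results of these data known. All 10 members are described. Likeness was the top gene by Pearson's r. Alternatives were RLE scaling, no filter, protein-coding genes alone, DESeq2 1.42.0, limma 3.58.1 voom with quality weights, a replicate block, a term for library numbers from 17 up, Amd1 and Amd2 summed, and leaving out libraries. TMM over both assays together was chosen after seeing the data.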

Additional observations from a re-analysis of the deposited data

Results flagged for a closer look

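In 5 of 60 sets of a member's values within a group of 4 or more libraries, 1 library lay farther from the rest than Dixon's 95% limit allows. Chance gives about 1 in 20 such sets. Amd1 RNA was 47.0 CPM in vehicle sgScramble replicate 4 and 57.4 to 60.5 in the other 4. Oaz1 RNA was 309.6 CPM in the library labelled treated sgScramble replicate 4 against 122 to 178, and 278 CPM in treated sgOgfod1 replicate 3 against 134 to 171. Sat1 RNA was 1158 CPM in the library labelled treated sgScramble replicate 4 against 327 to 636. The footprint-to-RNA ratio of Azin1 was 0.143 in treated sgScramble replicate 3 against 0.131 to 0.133. Of the 5, 3 fall on the 2 RNA libraries that stand apart.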

How the results depend on the processing

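The drop of Paox in sgScramble cells kept its call in all 32 RNA alternatives (-0.82 to -0.67) and all 18 footprint alternatives (-0.86 to -0.64), and that in sgOgfod1 RNA in 31 of 32. It was lost with only the mice that have footprints (-0.51, adjusted p = 0.181), where 2 treated mice remain. Counts of members called moved as follows. Calls over all genes moved too, and those for treatment are given below as ranges. RNA, treatment in sgScramble: 1 (with 2779 of 21474 genes called), but 5 with DESeq2 and 3 with voom, which called 5687 genes over all. The DESeq2 calls over all genes are given above. It was 2 without the pair of libraries standing apart, and 1 to 3 leaving out 1 library, with no share over all genes given. RNA, treatment in sgOgfod1: 2 (with 2120 genes called over all), but 1 with the replicate block and 0 in mice with footprints (850 genes). Footprints, treatment in sgScramble: 1, but 2 over protein-coding genes alone, 2 with the replicate block, and 1 to 2 leaving out 1 library. Footprints, treatment in sgOgfod1: 0 (with 1503 genes called over all), but 1 with no filter (2091 genes), 1 with DESeq2, and 0 to 1 leaving out 1 library. Footprints by genotype under treatment: 1, but 0 with the replicate block, 0 with the library-number term, and 0 to 1 leaving out 1 library. Calls over all genes there ran from 2 (library-number term) to 929 (no filter) around 289. The causes were not tested. The ratio called 0 members in all 17 alternatives.

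Of 150 pairs of member and comparison, 5 were called and 9 more were called only in an alternative. Among these 14 the direction turned once, for Oaz1 footprints in sgScramble cells (0.010, adjusted p = 0.977, with the library-number term, against -0.19). Of the 136 never called, 67 changed sign under some alternative. Over all genes, calls ranged from 1479 (replicate block) to 5687 (voom) around 2779 for RNA in sgScramble, from 850 to 4099 around 2120 for RNA in sgOgfod1, from 1365 to 3297 around 2847 and from 6 (library-number term) to 2091 around 1503 for footprints, and from 76 (no mouse block) to 923 (protein-coding genes) around 376 for the ratio in sgScramble. Replicate numbers do not pair mice across groups: same-numbered RNA libraries had a median r of deviations of -0.001 over 31 pairs, against 0.007 for other pairs, so the replicate block adds only a number. Footprints on Smox and Oaz2 were at a few CPM, and the treated sgOgfod1 footprint group holds 2 mice, which limits precision there.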
